A study of Mus musculus with 6 samples.

Results

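The 10 genes described here make, sense and inactivate prostaglandins. They are Pla2g4a, Ptgs1, Ptgs2, Ptges, Ptges2, Ptges3, Ptgis, Ptger2, Ptger4 and Hpgd, chosen by symbol for their place in the pathway. Earlier results of these data were known when they were chosen. The table of RNA levels lists all 10 among its 21837 gene symbols. Where a symbol had several rows, the row with the highest mean over all libraries was taken. This applied to Ptger4 alone, which has 2 rows. RNA was sequenced from wildtype mouse embryonic fibroblasts (MEFs), which are fibroblasts grown from embryos, here from littermates of a C57BL/6 and 129 background at day 13.5 and used at passage 4. The groups were untreated cells and cells given 20 ng/ml of TNFα, a cytokine that activates NF-κB, with harvests after 1.5, 6 and 24 hr, each time giving 1 poly-A selected, directional, paired-end library. Untreated MEFs also gave 1 H3K4me3 ChIP library and 1 input library. The mark, trimethylation of lysine 4 on histone H3, is typical of the starts of active genes.

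Prostaglandins are local lipid signals. A phospholipase A2, above all the cytosolic enzyme encoded by Pla2g4a, frees arachidonic acid from membranes. A cyclooxygenase, the product of Ptgs1 (COX-1) or Ptgs2 (COX-2), turns it into prostaglandin H2, and a terminal synthase then makes PGE2, prostacyclin or another prostanoid. Ptgs1 is known as the constitutive form and Ptgs2 as the form that inflammatory cytokines induce in fibroblasts. PGE2 acts on the cells that carry its receptors and is broken down by the dehydrogenase encoded by Hpgd.

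The cytosolic phospholipase and the inducible cyclooxygenase are neighbours. On chromosome 1 the starts of Ptgs2 (chr1:151947254-151955140, plus strand) and Pla2g4a (chr1:151676748-151808420, minus strand) are 138834 bp apart in mm9 and point away from each other. Ptgs1 (chr2:36085946-36107792, plus strand), Ptges (chr2:30744991-30785383, minus strand), Ptges2 (chr2:32251416-32258259, plus strand) and Ptgis (chr2:167017305-167066104, minus strand) are all on chromosome 2. Ptges3 is at chr10:127496010-127514328 on the plus strand, Ptger2 at chr14:45607870-45623495 on the plus strand, Ptger4 at chr15:5156661-5194187 on the minus strand and Hpgd at chr8:58773349-58799843 on the plus strand.

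Promoters are printed for 5 genes that carry the comparisons below: the inducible and the constitutive cyclooxygenase, Pla2g4a as the neighbour of Ptgs2, Ptges as a gene with a large change and no H3K4me3 peak, and Ptges2, which shares a motif with Ptgs2. Each runs from 250 bases before to 50 bases from the most upstream start of the gene's CCDS (consensus coding) transcripts in GENCODE, on the strand of the gene, read from the mm9 genome. For Ptges that start lies 26566 bp inside the gene as annotated, since a non-coding transcript reaches further upstream. Capitals mark matches to a κB site, to TATAAA or to the E-box CACGTG on either strand.
Ptgs2, chr1:151947004-151947303, plus strand: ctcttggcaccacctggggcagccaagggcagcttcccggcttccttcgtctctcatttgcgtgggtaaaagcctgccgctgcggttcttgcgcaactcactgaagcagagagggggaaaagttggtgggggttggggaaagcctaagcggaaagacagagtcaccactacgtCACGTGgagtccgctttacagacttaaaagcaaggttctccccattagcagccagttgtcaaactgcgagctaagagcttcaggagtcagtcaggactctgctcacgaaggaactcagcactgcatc
Ptgs1, chr2:36085696-36085995, plus strand: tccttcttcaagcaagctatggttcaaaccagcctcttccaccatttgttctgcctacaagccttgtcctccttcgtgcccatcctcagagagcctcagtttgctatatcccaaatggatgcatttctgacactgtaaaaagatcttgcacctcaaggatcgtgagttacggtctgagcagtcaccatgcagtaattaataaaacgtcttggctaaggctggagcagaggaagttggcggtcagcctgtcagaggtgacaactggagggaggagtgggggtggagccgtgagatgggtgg
Pla2g4a, chr1:151808371-151808670, minus strand: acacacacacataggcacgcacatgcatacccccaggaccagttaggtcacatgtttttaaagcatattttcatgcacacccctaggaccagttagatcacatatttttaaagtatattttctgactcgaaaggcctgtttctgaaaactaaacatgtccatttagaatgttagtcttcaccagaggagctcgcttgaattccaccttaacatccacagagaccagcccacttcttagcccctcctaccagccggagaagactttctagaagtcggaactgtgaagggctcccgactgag
Ptges, chr2:30758768-30759067, minus strand: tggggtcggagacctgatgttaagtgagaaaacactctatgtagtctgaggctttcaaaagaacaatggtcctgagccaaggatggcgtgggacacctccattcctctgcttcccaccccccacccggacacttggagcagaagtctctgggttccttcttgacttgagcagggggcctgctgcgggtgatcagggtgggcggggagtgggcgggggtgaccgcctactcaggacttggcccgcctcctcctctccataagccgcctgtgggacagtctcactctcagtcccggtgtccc
Ptges2, chr2:32251166-32251465, plus strand: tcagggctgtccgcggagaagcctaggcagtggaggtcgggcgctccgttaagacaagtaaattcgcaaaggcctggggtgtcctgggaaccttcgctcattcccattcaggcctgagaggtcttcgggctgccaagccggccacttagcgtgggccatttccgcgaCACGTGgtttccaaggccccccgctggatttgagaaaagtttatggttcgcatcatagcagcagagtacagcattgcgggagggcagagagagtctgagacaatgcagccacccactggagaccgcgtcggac
Among these 5 windows capitals are found only in Ptgs2 and Ptges2, namely the E-box of Ptgs2, 77 to 72 bases before the start, and the E-box of Ptges2, 83 to 78 bases before it. An E-box was found in 7.84% of the 22204 coding promoters of the same length. Of the 5 members not printed, Ptges3 matched the κB pattern, which 9.06% of promoters do, and Hpgd held TATAAA, which 13.3% do. The core TGACG of a cyclic AMP response element was found in Ptgs2, where it overlaps the E-box, and in Ptges3 and Ptgis, against 23.4% of all promoters. The GC box GGGCGG was found in Ptges, Ptges3, Ptger4 and Hpgd, against 44.9% of all. The start of Ptgs2 in RefSeq lies 93 bases upstream of the GENCODE start used here, so a window set on it would be shifted by that distance.

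The table gives RPKM, a read count corrected for transcript length and library size, so that levels can be compared between genes per length. RPKM here is the deposited value divided by 1 constant, so ratios are as deposited. The steps between deposited values allowed the reads of each gene to be estimated, as rounded means over the 2 columns of a library. The 95% intervals below apply exact formulas to those rounded reads, except for ratios of 2 genes, where they are approximate. They cover counting error only. No test of the conditions was possible with single libraries, which are all that the intervals compare. A gene was called when it differed at least 2-fold from the untreated library and had a mean above 1 RPKM across the 4 libraries. In that sense 6 of the 10 genes could be called. These were Pla2g4a, Ptgs2, Ptges, Ptges2, Ptges3 and Ptgis, while Ptgs1, at an average of 0.902, and Ptger2, Ptger4 and Hpgd were under the limit.

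The 4 libraries did not share 1 scale. Relative to the untreated library, the sum of all values was 1.19, 0.563 and 0.964 after 1.5, 6 and 24 hr. The median log2 ratio of the 6537 coding genes with an average RPKM above 1 was 0.45, -0.74 and 0.11 at these times. The ratio also moved with base composition, for genes with the lowest GC content had a median log2 ratio of 1.42 at 1.5 hr and 1.01 at 24 hr, and those with the highest -0.77 and -0.99. A comparison with genes of like GC is therefore given for the ratios of each of the 10 genes to the untreated library. Nfkbia, the IκBα gene and a direct target of NF-κB, had 3.73 RPKM without TNFα and 84.2, 31.0 and 67.4 RPKM after 1.5, 6 and 24 hr, so the treated libraries hold a TNFα response. All 7 fibroblast markers were above 1 RPKM in untreated cells, with a sum of 1043 RPKM against 1031, 498.0 and 628.1 at the 3 times. Of 8 leukocyte markers 2 were above 1 in untreated cells (Cd68 and Csf1r) and Cd3e was listed at 0, with sums of 12.2, 20.9, 5.98 and 10.7 RPKM in time order. Cd14 alone went from 0.731 to 6.02 RPKM at 1.5 hr, and without it the sums were 11.4, 14.9, 3.90 and 6.21. The part of the leukocyte markers in the values of the prostaglandin genes was not tested. No endothelial marker of 4 and 1 epithelial marker of 5 (Krt19) reached 1 RPKM, and Epcam was listed at 0. Endothelial sums were at most 0.0588 RPKM, and epithelial sums were 2.74, 2.76, 1.20 and 3.44 in time order.

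In untreated MEFs the levels fell into 3 tiers. Ptges3, which encodes the cytosolic PGE synthase that is also the Hsp90 co-chaperone p23, was highest at 3.29 RPKM. A middle tier of 6 genes ran from Ptgis at 1.26 RPKM through Ptges2 at 1.17, Ptgs1 at 0.934, Ptgs2 at 0.764 and Pla2g4a at 0.727 to Ptges at 0.683. Each neighbour pair in this tier had overlapping counting intervals, so the order of neighbours is not resolved at this depth, while the ends of the tier, Ptgis and Ptges, did not overlap. The low tier held the receptor Ptger4 at 0.141 RPKM, Hpgd at 0.0550 and the receptor Ptger2 at 0.0217, from 36, 9 and 7 reads. Again, neighbours within it overlapped.

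After 1.5 hr of TNFα, 4 of the 6 genes that could be called were at least 2-fold higher (Ptgs2, Ptges, Pla2g4a and Ptges3), against 29.9% of the 6537 coding genes. At 6 hr none of the 6 was higher, against 1.74% of coding genes. At 24 hr, 3 were higher (Ptgs2, Ptges and Pla2g4a), against 16.8%. None of the 6 was called lower at 1.5, 6 or 24 hr, where 7.8%, 31.6% and 12.6% of coding genes were. Ptgs2, Ptges and Pla2g4a were under 1 RPKM in the untreated and 6 hr libraries and passed the limit through their 1.5 and 24 hr values. The genes were also chosen with earlier results of these data known, so the counts among the 6 and the 10 are a description. Over all 10 genes at any level, 5 were at least 2-fold higher at 1.5 hr (Hpgd being added), 3 at least 2-fold lower at 6 hr (Ptgs1, Ptger2 and Ptger4) and 3 higher at 24 hr. Over coding genes above 0 in both libraries these shares were 28.7%, 34.9% and 16.2%. The median log2 ratio of all 10 was 1.11, -0.58 and 0.47 at the 3 times, and 8, 6 and 7 of them were above the coding median. The 4 libraries and both columns of each are shown in the plot of RPKM by time.

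**Figure D1:**
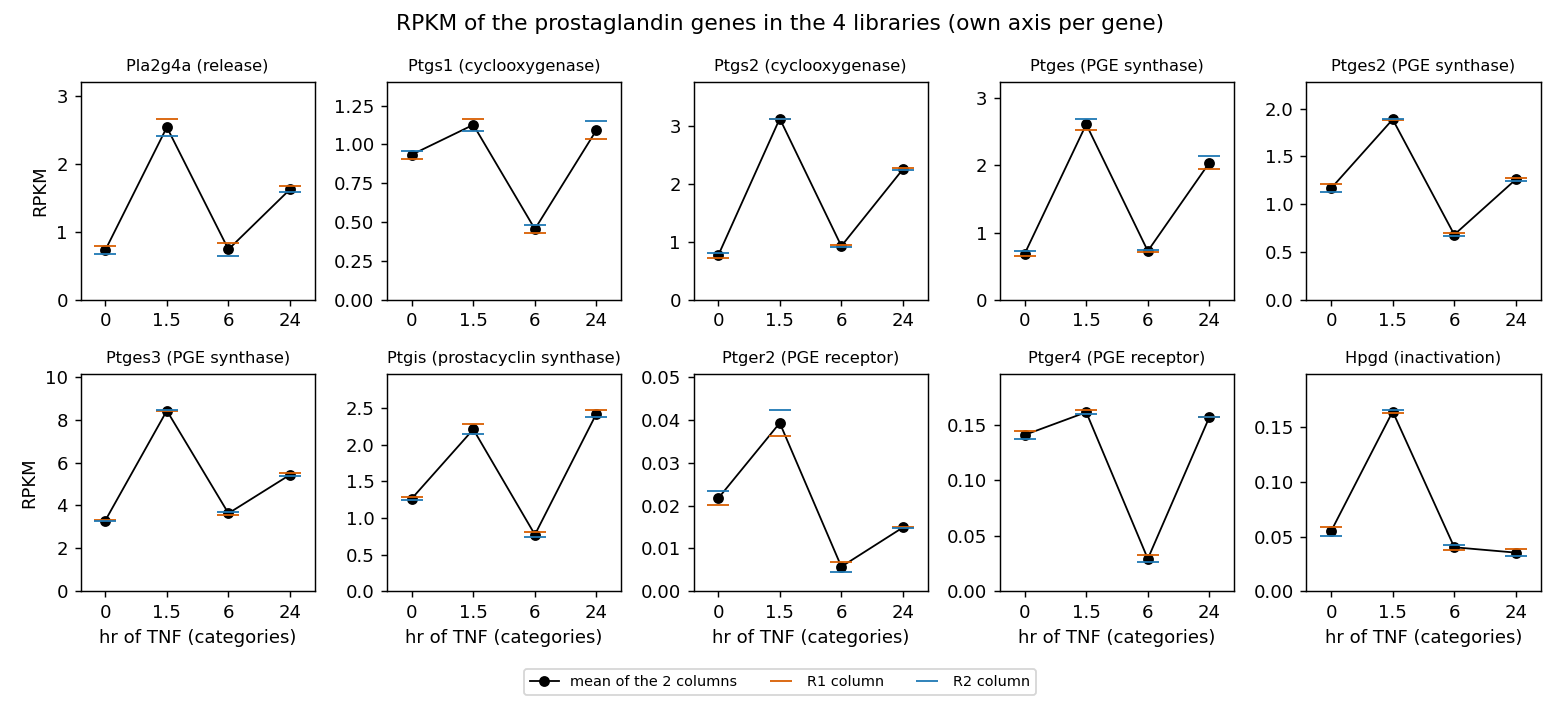
RPKM (y axis, from 0, own scale per gene) of the 10 prostaglandin genes at 0, 1.5, 6 and 24 hr of TNFα (x axis, categories not to scale). Black points are the mean of the R1 and R2 columns of the 1 library per time, and coloured dashes are the columns. On the deposited scale, Ptgs2, Ptges and Pla2g4a are high at 1.5 and 24 hr and near the untreated level at 6 hr.

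The release of arachidonic acid comes first in the pathway. Pla2g4a had 0.727 RPKM without TNFα and 2.54, 0.739 and 1.62 RPKM after 1.5, 6 and 24 hr, from 187, 681, 167 and 492 reads. On the deposited scale the 1.5 and 24 hr libraries were high and the 6 hr library was at the untreated level. Scaled to the sum of each library or to a median of ratios, its log2 ratio at 6 hr was 0.84 to 0.85. As deposited, the log2 ratios at 1.5, 6 and 24 hr were 1.80 (95% interval 1.57 to 2.04), 0.02 (-0.29 to 0.33) and 1.16 (0.91 to 1.41). Its transcript is 42.1% GC, and the coding genes of its GC bin (321 genes) had medians of 1.42, -0.06 and 1.01 at these times, with 69.8% of them at least 2-fold higher at 1.5 hr and 50.8% at 24 hr. Relative to that bin Pla2g4a was 0.38, 0.08 and 0.15 higher, so it was not past 2-fold at any time by that measure.

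The cyclooxygenases act next. Ptgs2 had 0.764 RPKM without TNFα and 3.13, 0.927 and 2.26 RPKM after 1.5, 6 and 24 hr, from 286, 1220, 304 and 994 reads. Both columns of each library gave the same order. Ptgs2 was 4.10-fold higher at 1.5 hr, with a log2 ratio of 2.04 (1.85 to 2.23), an interval that overlaps that of Ptges, and 1.21-fold higher at 6 hr (log2 0.28, 0.04 to 0.52). It was 2.95-fold higher at 24 hr (log2 1.56, 1.37 to 1.76). Ptgs2 falls in the same low GC bin as Pla2g4a, at 40.5% GC, and was 0.61, 0.33 and 0.56 above the bin median on the log2 scale. Centred within GC bins, Ptgs2 therefore stayed above its peers at the 3 times but not by 2-fold.

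Ptgs1, the constitutive cyclooxygenase, had 0.934 RPKM without TNFα and 1.13, 0.455 and 1.09 RPKM after 1.5, 6 and 24 hr, from 242, 304, 104 and 333 reads. The 6 hr library was the low one. Its log2 ratio was 0.27 (0.02 to 0.52), -1.04 (-1.38 to -0.70) and 0.23 (-0.02 to 0.47), and against its GC bin it was -0.32, -0.27 and 0.02. Its sign at 1.5 hr turned negative under both median-of-ratios scalings and within GC bins. Ptgs1 was below the limit on the average level, so its ratio at 6 hr was not a call.

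The ratio of Ptgs2 to Ptgs1 takes the scale of a library out, though not the difference in GC between the 2 transcripts, 40.5% and 51.0%. It was 0.818 without TNFα and 2.78, 2.04 and 2.07 after 1.5, 6 and 24 hr. Before TNFα the levels of the 2 genes overlapped within counting error, and Ptgs2 was the more abundant one at each of the 3 times after it. The log2 change of the ratio was 1.77 (1.46 to 2.07), 1.32 (0.91 to 1.72) and 1.34 (1.03 to 1.64). The medians of the 2 GC bins differed by 0.84, 0.71 and 0.80 in the same direction.

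**Figure D2:**
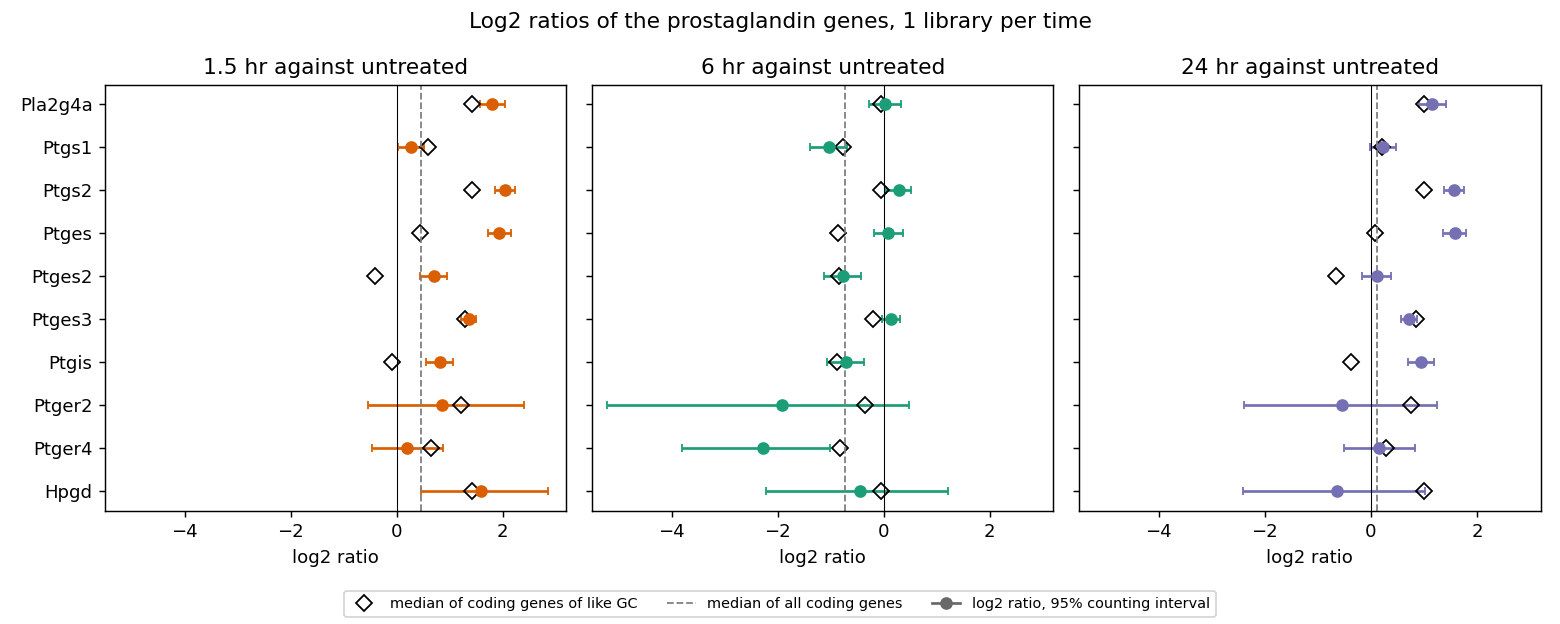
Log2 ratio to the untreated library (x axis) of the 10 genes (y axis) at 1.5, 6 and 24 hr, with 95% counting intervals as bars. Diamonds are the medians of coding genes of like GC and the dashed line is the median of all coding genes. Pla2g4a, Ptgs2, Ptges and Ptgis lie to the right of both at each time, Ptgis only slightly at 6 hr. Pla2g4a and Ptges3 lie close to their diamonds.

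Of the PGE synthases, Ptges encodes the membrane-bound synthase mPGES-1, which is known to be induced together with COX-2. It had 0.683 RPKM without TNFα and 2.61, 0.725 and 2.04 RPKM after 1.5, 6 and 24 hr, from 225, 894, 209 and 790 reads. Its course had the shape of that of Ptgs2, with high values at 1.5 and 24 hr. Its log2 ratios were 1.94 (1.72 to 2.15), 0.09 (-0.19 to 0.36) and 1.58 (1.36 to 1.80). At 53.1% GC it is not in an AT-rich bin: the 321 genes of its bin had medians of 0.44, -0.86 and 0.07, and 25.5% of them were at least 2-fold higher at 1.5 hr and 12.8% at 24 hr. Ptges was 1.49, 0.95 and 1.51 above the bin median, so it was past 2-fold at 1.5 and 24 hr within its GC bin as well. Ptges overlaps Gm13400 on the same strand, and shared reads cannot be assigned from the table.

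Ptges3 had 3.29 RPKM without TNFα and 8.42, 3.63 and 5.43 RPKM after 1.5, 6 and 24 hr, from 581, 1549, 563 and 1129 reads. It was the most abundant of the 10 genes in every library. The log2 ratios were 1.36 (1.22 to 1.50), 0.14 (-0.03 to 0.31) and 0.72 (0.58 to 0.87), and only that at 1.5 hr was past 2-fold, though not under either median-of-ratios scaling (0.90 over all and 0.89 over coding transcripts). Its GC bin, at 43.3% GC, had medians of 1.29, -0.20 and 0.86, so that relative to them Ptges3 was at 0.07, 0.35 and -0.14. Ptges3 overlaps Baz2a on the same strand, and reads of the shared stretch cannot be assigned from the table.

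Ptges2, the other membrane-associated PGE synthase, had 1.17 RPKM without TNFα and 1.89, 0.680 and 1.26 RPKM after 1.5, 6 and 24 hr, from 205, 347, 105 and 261 reads. The 1.5 hr library was high and the 6 hr library low, with no ratio past 2-fold. The log2 ratios were 0.70 (0.44 to 0.95), -0.78 (-1.13 to -0.43) and 0.11 (-0.16 to 0.38). At 59.6% GC its bin had medians of -0.42, -0.84 and -0.65, and relative to these Ptges2 was at 1.11, 0.06 and 0.76. Centring within GC bins therefore put Ptges2 past 2-fold at 1.5 hr. The sign of its ratio at 6 hr turned under GC centring and under the 3 scalings to the sum or a median of ratios.

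Among the PGE synthases the balance, as deposited, moved toward Ptges over Ptges2 at each time and over Ptges3 at 1.5 and 24 hr. The ratio of Ptges to Ptges2 was 0.586 without TNFα and 1.38, 1.07 and 1.62 after 1.5, 6 and 24 hr, a log2 change of 1.24 (0.91 to 1.57), 0.86 (0.43 to 1.30) and 1.47 (1.13 to 1.81). The medians of their GC bins differed by 0.86, -0.03 and 0.72. The ratio of Ptges to Ptges3 was 0.208, 0.310, 0.1998 and 0.376 in the same order. Its log2 change was 0.58 (0.33 to 0.83) at 1.5 hr, -0.06 (-0.38 to 0.26) at 6 hr and 0.86 (0.60 to 1.11) at 24 hr, where GC bin medians differed by -0.84, -0.66 and -0.79. The ratio of Ptgs2 to Ptges, the 2 inducible enzymes that act in sequence, stayed between 1.11 and 1.28 in the 4 libraries, and the interval of its log2 change held 0 at each time. The medians of their GC bins differed by 0.98, 0.81 and 0.93 toward Ptgs2.

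Ptgis, the prostacyclin synthase, had 1.26 RPKM without TNFα and 2.21, 0.771 and 2.43 RPKM after 1.5, 6 and 24 hr, from 200, 365, 107 and 453 reads. It is the only one of the 6 callable genes with its highest value at 24 hr, although its log2 change from 1.5 to 24 hr was 0.13 (-0.07 to 0.34) and so within counting error. The log2 ratios to untreated were 0.81 (0.55 to 1.06), -0.71 (-1.06 to -0.37) and 0.94 (0.70 to 1.19), none past 2-fold. Its GC bin, at 56.6% GC, had medians of -0.08, -0.88 and -0.37. Ptgis was 0.89, 0.16 and 1.31 above it, so centring within GC bins put it past 2-fold at 24 hr, and its sign at 6 hr turned under the same 4 alternatives as that of Ptges2. The ratio of Ptgis to Ptges was 1.85 in the untreated library and 0.846, 1.06 and 1.19 at 1.5, 6 and 24 hr, with a log2 change of -1.13 (-1.45 to -0.80), -0.80 (-1.23 to -0.36) and -0.64 (-0.96 to -0.32). GC bin medians differed by -0.52, -0.01 and -0.44. Ptgis overlaps 2 annotated genes on the opposite strand, 1110018N20Rik and Gm14291.

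**Figure D3:**
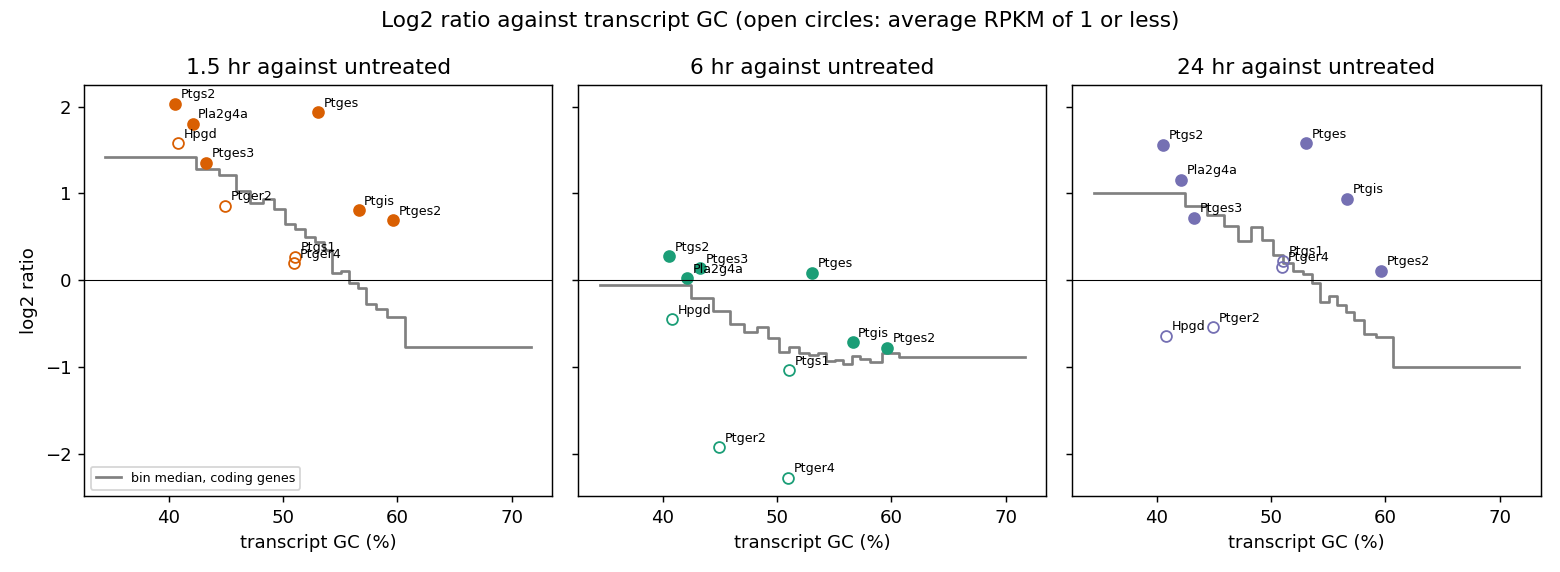
Log2 ratio to the untreated library (y axis) against the GC content of the transcript in percent (x axis) at 1.5, 6 and 24 hr. The grey steps are the medians of 20 bins of coding genes and the points are the 10 genes; Ptges, Ptges2 and Ptgis lie furthest above the steps at 1.5 and 24 hr.

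The receptors and the inactivating enzyme had few reads. Ptger4, the EP4 receptor, had 0.141 RPKM without TNFα and 0.161, 0.0291 and 0.157 RPKM after 1.5, 6 and 24 hr, from 36, 43, 6 and 47 reads. The 6 hr library stood below the other 3. Its log2 ratio at 6 hr was -2.27 (-3.81 to -1.01), and -1.45 relative to its GC bin, while those at 1.5 hr (0.20, -0.48 to 0.88) and 24 hr (0.16, -0.50 to 0.82) had intervals that held 0. Relative to its GC bin Ptger4 was at -0.46 at 1.5 hr and -0.13 at 24 hr. It overlaps Ttc33 and Gm15937 on the opposite strand.

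Ptger2, the EP2 receptor, had 0.0217, 0.0393, 0.00572 and 0.0149 RPKM in time order, which is 7, 14, 2 and 6 reads. No difference from the untreated library was detectable at this depth, since the interval of each ratio to untreated held 0. Relative to its GC bin Ptger2 was at -0.35, -1.56 and -1.30 after 1.5, 6 and 24 hr. Hpgd had 0.0550, 0.165, 0.0402 and 0.0353 RPKM, from 9, 27, 6 and 6 reads. Only its 1.5 hr library stood apart from the untreated one beyond counting error, with a log2 ratio of 1.58 (0.45 to 2.86). That is 0.16 above the median of the low GC bin it falls in. At 6 and 24 hr the intervals held 0, and Hpgd was at -0.40 and -1.64 relative to that median. From 1.5 to 24 hr Hpgd changed by -2.22 (-3.79 to -0.92) on the log2 scale, the lowest such change of the 10 genes. Coding genes had a median of -0.33 over the same interval.

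Between the treated libraries, each of the 10 genes was lower at 6 than at 1.5 hr, with an interval below 0. The log2 change ran from -1.21 for Ptges3 to -2.78 for Ptger2, against a coding median of -1.33. From 6 to 24 hr the change was above 0 for 9 genes, between 0.58 for Ptges3 and 2.43 for Ptger4, and the interval of Ptger2 alone among them held 0, against a coding median of 0.97. It was -0.19 for Hpgd, with an interval of -2.09 to 1.71. The intervals of Pla2g4a, Ptgs2 and Ptges from 1.5 to 6 hr lay below the coding median. From 6 to 24 hr the intervals of Ptgs2, Ptges, Ptgis and Ptger4 lay above it and that of Ptges3 below it. The changes between treated libraries were not compared by GC. When the ratios at 6 hr were scaled to the sum of each library or to a median of ratios, which moved every log2 ratio up by 0.81 to 0.83, Ptgs2 was past 2-fold at 6 hr as well. The same scalings moved log2 ratios by -0.25 to -0.46 at 1.5 hr and by -0.11 to 0.05 at 24 hr.

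After 24 hr the middle tier had reordered. This order is of levels without regard to GC. The GC bins of these genes had median log2 ratios at 24 hr from -0.65 (Ptges2) to 1.01 (Pla2g4a and Ptgs2), and their part in the order was not tested. Ptgis at 2.43 RPKM, Ptgs2 at 2.26 and Ptges at 2.04 were next to each other with overlapping counting intervals between neighbours, above Pla2g4a at 1.62. Ptges2 at 1.26 and Ptgs1 at 1.09, which overlapped, came below. Ptges3 remained on top at 5.43 RPKM, and Ptger4, Hpgd and Ptger2 at the bottom at 0.157, 0.0353 and 0.0149.

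H3K4me3 was profiled in untreated cells only. A peak within 1 kb of the start was listed for 7 of the 10 genes, and all 7 peaks covered the start. Of the coding genes with an untreated level above 1 RPKM, 89.5% had one. The share was 77.0% for coding genes between 0.2 and 1 RPKM, 42.5% between 0.02 and 0.2 and 4.05% up to 0.02. Ptgs2 had a peak of 5913 bp with 1606 tags and 83.8-fold enrichment over input, from -2387 to 3525 bp around its start (negative values upstream), at a time when its RNA was at 0.764 RPKM. The peak of its neighbour Pla2g4a was 3239 bp with 697 tags and 89.7-fold enrichment, and no peak was listed between them. Ptgs1 had 32.9-fold enrichment over 2923 bp with 417 tags, so that of the 2 cyclooxygenases the inducible one had the longer and more enriched peak. The paper describes a TNFα-induced long noncoding RNA that it names Cox2 Divergent. Its part in the peak at Ptgs2 was not tested.

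Ptges2 had 89.5-fold enrichment over 3573 bp and 1655 tags, and Ptges3 61.6-fold over 4798 bp and 2081 tags. Ptger4, at 0.141 RPKM, had the longest peak of the 7, 6305 bp with 1602 tags and 34.1-fold enrichment. Hpgd had the shortest and least enriched one, 1649 bp with 188 tags, 22.4-fold and an FDR of 0.23%. Median values over peaks of coding genes were 3721 bp, 1321 tags and 49.7-fold above 1 RPKM, the level of Ptges2 and Ptges3. They were 3223 bp, 1103 tags and 48.0-fold between 0.2 and 1 RPKM, where Ptgs2, Pla2g4a and Ptgs1 lie, and 2690 bp, 802 tags and 42.2-fold between 0.02 and 0.2, where Ptger4 and Hpgd lie.

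No peak was listed at Ptges, Ptgis or Ptger2. The nearest one was 49058 bp from the start of Ptges (22492 bp from the upstream end of the annotated gene), 105879 bp from that of Ptgis and 229988 bp from that of Ptger2. Ptgis at 1.26 RPKM and Ptges at 0.683 RPKM are therefore in the minority of genes of their level without a listed peak. The list holds no peak under 20-fold enrichment, so a weaker signal at these starts would not appear in it. Ptger2 is at a level where most genes have none.

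**Figure D4:**
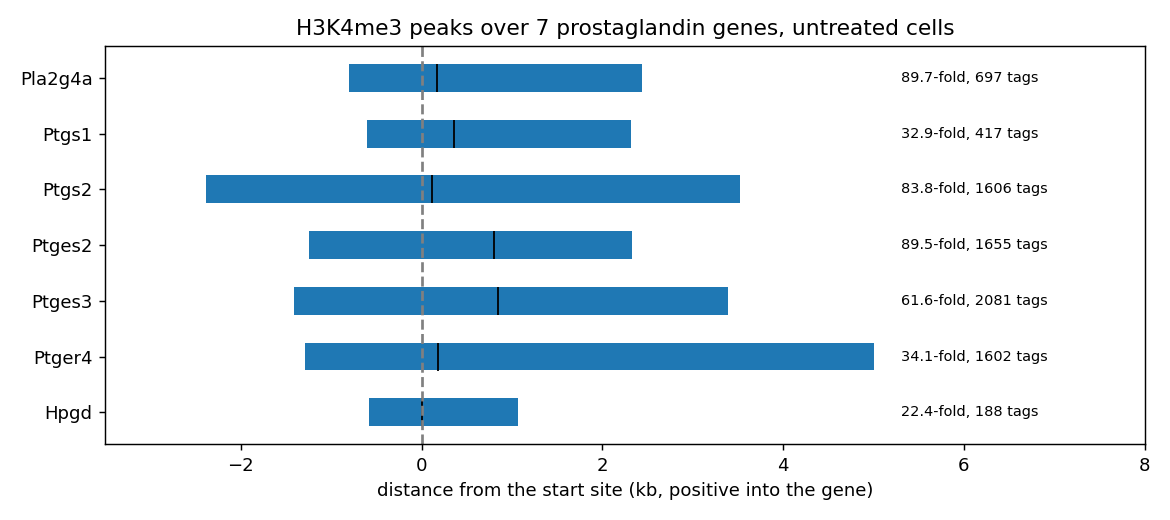
Extent of the H3K4me3 peaks of untreated MEFs over the starts of 7 prostaglandin genes (x axis, kb from the start, positive into the gene), with the summit as a black tick and the fold enrichment and tags at the right. Each of the 7 peaks covers the start, and the peak of Hpgd is the shortest at 1649 bp.

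The genes whose course was most like that of Ptgs2 were sought over the 3 log2 ratios among 6531 coding genes. The smallest root mean square differences were those of Ube2d1 (0.05) and Cdc5l (0.05), Ppp2cb (0.05), Rab11a (0.06) and Ostc (0.06). They encode a ubiquitin-conjugating enzyme, a splicing factor, a subunit of phosphatase 2A, a small GTPase of recycling endosomes and a subunit of the oligosaccharyltransferase, and are not prostaglandin genes. Ube2d1 had 0.466, 1.97, 0.576 and 1.43 RPKM in time order and log2 ratios of 2.08, 0.31 and 1.62. Of the members, Ptges was closest to Ptgs2 at 0.13, followed by Pla2g4a at 0.31 and Ptges3 at 0.63. The genes named first were nearer than Ptges, and the rank of the members among coding genes was not computed. All these differences rest on ratios as deposited, without regard to GC, so the ranking holds for that scale only. Relative to its GC bin, Ptgs2 was at 0.61, 0.33 and 0.56 and Ptges at 1.49, 0.95 and 1.51. Pla2g4a was at 0.38, 0.08 and 0.15 by that measure, and Ptges3 at 0.07, 0.35 and -0.14.

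The other genes of the prostanoid and leukotriene pathways were taken from a list of 47, of which the table has 46 and 12 were above an average of 1 RPKM. Of these 12, 6 were at least 2-fold higher and 3 lower at 1.5 hr, 0 higher and 4 lower at 6 hr, and 1 higher and 2 lower at 24 hr, in all 11 genes at 1 or more times, against 68.3% of coding genes. On the same ratios, the shares of all coding genes were 29.9% higher and 7.8% lower, 1.74% and 31.6%, and 16.8% and 12.6% at these times. Relative to GC bins, 0 of the 11 genes were past 2-fold higher at any of the 3 times. Past 2-fold lower were 2 at 1.5 hr (Ptger1 and Ltc4s), 0 at 6 hr and 1 at 24 hr (Ptger1). The share of coding genes past 2-fold from their own bin median was not computed. The median log2 ratio of the 12 was 0.85, -0.76 and 0.44, against 0.45, -0.74 and 0.11 for coding genes. Only Pla2g15 of the 12 was past 2-fold at no time. Pla2g7 was above 1 RPKM at 1.5 hr alone and Pla2g12a at 1.5 and 24 hr alone. The list was also chosen with earlier results of these data known, so the counts among the 12 are a description. The limit also left out genes past 2-fold in both directions. Among them were Tbxa2r (1.65 RPKM untreated, log2 ratios of -2.71, -2.84 and -3.48) and Cbr3 (0.345 RPKM untreated, log2 ratios of 1.29, -0.72 and 1.25), named after their values were seen.

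**Figure D5:**
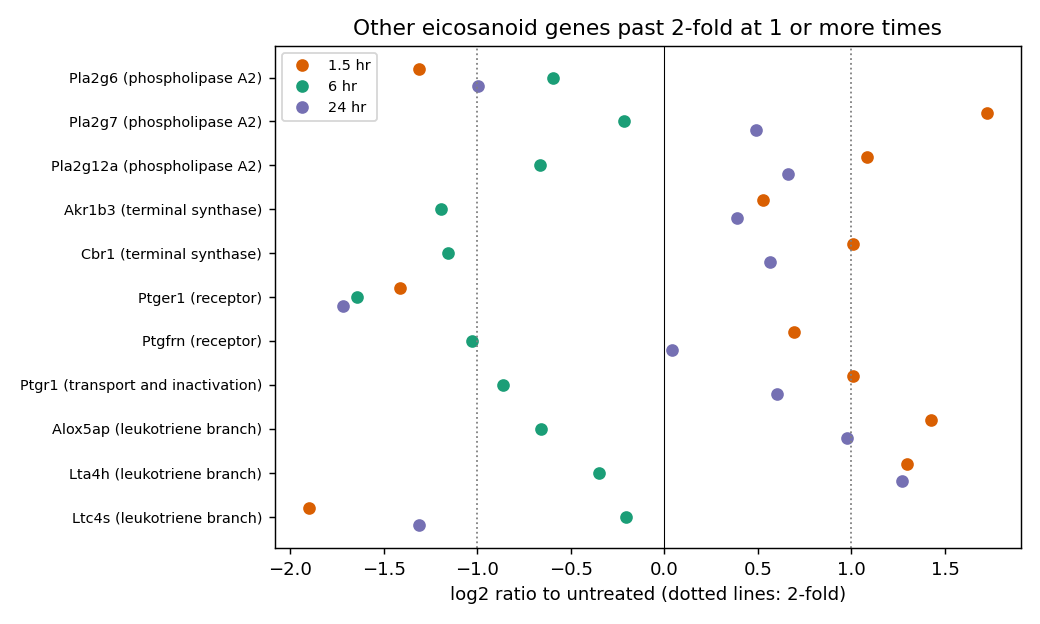
Log2 ratio to the untreated library (x axis) at 1.5, 6 and 24 hr of the 11 other eicosanoid genes that were past 2-fold at 1 or more times (y axis, with their group). Dotted lines mark 2-fold; Lta4h lies right of the line at 1.5 and 24 hr, and Ptger1 left of it at all 3 times.

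Among phospholipases, Pla2g7, which encodes the platelet-activating factor acetylhydrolase of plasma, had 0.668, 2.21, 0.575 and 0.938 RPKM in time order and a log2 ratio of 1.72 at 1.5 hr, 0.84 above its GC bin. Pla2g12a, a secreted enzyme, had 0.786, 1.66, 0.495 and 1.24 RPKM, past 2-fold at 1.5 hr (1.08, and 0.50 above its GC bin). Pla2g6, a calcium-independent enzyme, went the other way, with 4.28, 1.72, 2.83 and 2.14 RPKM and a log2 ratio of -1.31 at 1.5 hr, in a GC bin with a median of -0.33. Its ratio at 24 hr was just short of 2-fold.

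Of the other terminal synthases, Cbr1, a carbonyl reductase that can act on PGE2, had 3.70, 7.42, 1.66 and 5.48 RPKM, with log2 ratios of 1.01 at 1.5 hr and -1.16 at 6 hr, which are 0.51 and -0.32 relative to its GC bin. Akr1b3, an aldose reductase with PGF synthase activity, had 6.00, 8.63, 2.62 and 7.84 RPKM and was past 2-fold only at 6 hr (-1.19, and -0.35 relative to its GC bin). Ptgr1, which reduces and so inactivates prostaglandins and leukotriene B4, had 1.72, 3.46, 0.949 and 2.62 RPKM and a log2 ratio of 1.01 at 1.5 hr, 0.07 above its GC bin.

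Of the receptor group, Ptger1, the EP1 receptor, had 4.81, 1.81, 1.54 and 1.46 RPKM, the highest untreated level of the PGE receptors, with log2 ratios of -1.41, -1.64 and -1.72, or -1.14, -0.74 and -1.26 relative to its GC bin. Whether the counting used strand is not given in the sources used here, so reads from the opposite strand cannot be told apart from its own and its values are uncertain. Ptgfrn, a membrane protein that binds the PGF receptor and lowers its ligand binding, had 1.73, 2.80, 0.849 and 1.78 RPKM, past 2-fold only at 6 hr (-1.03). At 6 hr its GC bin had a median of -0.93.

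In the leukotriene branch, Lta4h, whose product makes leukotriene B4, had 2.21, 5.43, 1.74 and 5.33 RPKM and log2 ratios of 1.30, -0.35 and 1.27, or 0.36, 0.19 and 0.66 relative to its GC bin. Alox5ap, the 5-lipoxygenase activating protein, had 1.06, 2.83, 0.669 and 2.08 RPKM, with log2 ratios of 1.42, -0.66 and 0.97, or 0.92, 0.18 and 0.87 relative to its GC bin. Ltc4s, leukotriene C4 synthase, had 3.74, 1.00, 3.24 and 1.51 RPKM and log2 ratios of -1.90, -0.21 and -1.31, in the bin of highest GC with medians of -0.77, -0.88 and -0.99. It overlaps Gm16641 on the opposite strand. The 5-lipoxygenase gene Alox5 itself, named here after its values were seen, was low at 0.212, 0.214, 0.104 and 0.256 RPKM.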

How the data were processed

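RNA-seq gave 1 library at each of 4 times. The authors aligned reads to mm9 with TopHat and deposited 2 RPKM columns (R1 and R2) for each library, made per RefSeq transcript by their own script. R1 and R2 held the same number of bases for 36.7% to 45.2% of low transcripts, so they were averaged and not taken as replicates. All values were divided by 85.7, the median ratio to the RPKM scale of the supplementary lists over 6314 values. The members and lists were chosen with earlier results of these data known.

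Within a transcript, deposited values were whole numbers of bases (tolerance 0.002) with a most frequent step of 41 bases. Bases divided by 41, averaged over R1 and R2 and rounded, gave reads. The 95% intervals are Clopper-Pearson for ratios between libraries, exact Poisson for levels and a normal approximation on log reads for ratios of 2 genes. Depth is given as reads per gene. One protocol field of the 24 hr sample describes ChIP, but its other fields name RNA-seq and it was used as such.

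ChIP reads were aligned with Bowtie, and MACS peaks were deposited with tag counts, fold enrichment (a ratio) and FDR in percent, 11157 in all. Starts (the most upstream of CCDS transcripts), GC content and sequences came from mm9 and GENCODE vM1, with GC for 98.1% of 6537 coding genes in 20 bins. The RefSeq promoter table (GRCm38.p6) had 9 of the 10 genes. Named genes were the 10 members, list genes past 2-fold, Nfkbia and the 5 genes closest to Ptgs2. Alternatives were other scalings, a pseudocount of 1, single columns, all rows of a gene, GC bins, thresholds and peak limits. Steps were tested on simulated data. Python 3.11.15, numpy 2.4.6, pandas 2.3.3 and scipy 1.17.1 were used.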

Additional observations from a re-analysis of the deposited data

Results flagged for a closer look

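Genes whose ratio to untreated lay above 0 at one time and below 0 at another, both beyond the counting interval, were set aside here. Between times the difference was not tested, since there is 1 library per time. Ptgs1 had a log2 ratio of 0.27 at 1.5 hr and -1.04 at 6 hr. For Ptges2 the values were 0.70 at 1.5 hr and -0.78 at 6 hr. Ptgis had 0.81, -0.71 and 0.94 in time order. The coding medians were 0.45, -0.74 and 0.11 in time order. Within GC bins Ptgs1, Ptges2 and Ptgis were at -0.32, 1.11 and 0.89 at 1.5 hr. At 6 hr they were at -0.27, 0.06 and 0.16. Ptges2 and Ptgis were thus not below their peers at 6 hr, and Ptgs1 was not above its peers at 1.5 hr.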

How the results depend on the processing

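No paired analysis was possible because each time had 1 library. The counts of genes at least 2-fold higher, which were 4, 0 and 3 in time order, depended on the scale. Scaling to the library sum or to a median of ratios over all or coding transcripts gave 1 at 6 hr (Ptgs2), and both medians of ratios gave 3 at 1.5 hr, without Ptges3. A pseudocount of 1 RPKM gave 0 at 24 hr. Centring within GC bins gave 2 at 1.5 hr (Ptges and Ptges2) and 2 at 24 hr (Ptges and Ptgis), with no share of coding genes computed on that measure. A threshold of 1.5-fold gave 5 higher at 24 hr and 2 lower at 6 hr, one of 3-fold gave 0 higher at 24 hr, and dropping the RPKM limit gave 3 lower at 6 hr. Leaving the 6 hr library out of the average, an alternative added after seeing the data, let Ptgs1 pass (7 genes) and kept the counts at 4 and 3. The median log2 ratio of the 10 genes at 1.5, 6 and 24 hr was 0.86, 0.25 and 0.53 scaled to the sum, 0.65, 0.23 and 0.37 by median of ratios over all transcripts, 0.65, 0.23 and 0.36 over coding ones, 0.46, -0.022 and 0.35 with the pseudocount, 0.27, 0.071 and 0.088 within GC bins, and 0.52 at 24 hr with all rows of a gene. Ptges was past 2-fold at 1.5 hr under all 8 alternatives for single ratios, and at 24 hr under 7. These alternatives are not independent. Ptges has 1 row, so the use of all rows could not change it, and the single columns are parts of the averaged value. The peak count of 7 was 4 at 40-fold enrichment or more, and 7 under the other 3 limits. Counting precision limits Ptger2 and Hpgd, with 2 to 27 reads per library, and Ptger4 at 6 hr, with 6 reads. Causes were not tested.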
